A study of Mus musculus with 32 samples.

Results

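Endothelial, pericyte and vascular genes are 32 genes that mark the cells of blood vessels, out of 54532 genes in the striatal count table. They were taken from a list of symbols, matched to the table's Ensembl identifiers through GENCODE M21. The list holds 4 genes of endothelial junctions and adhesion, 5 endothelial receptors, 3 endothelial transcription factors, 6 genes of transport at the blood-brain barrier, 4 genes of the endothelial surface or secretion, 6 pericyte genes and 4 contractile genes of vascular smooth muscle. The study asked what loss of the mismatch repair gene Msh3 does in the zQ175 mouse, a knock-in model of Huntington's disease with an expanded CAG repeat in the mouse's own Htt gene. RNA of the whole striatum was sequenced from 32 mice at 6 months of age, 8 of each of 4 genotypes on a C57BL/6J background: wild-type, zQ175, Msh3-/- and zQ175:Msh3-/-. There were 4 males and 4 females per genotype, except for 5 males and 3 females among zQ175:Msh3-/- mice. The Msh3 knockout was made by CRISPR with guides to exons 3 and 8, and mice called Msh3-/- carry it on both chromosomes. The tissue held every cell type of the striatum, vessels included, and the libraries were selected for polyadenylated RNA, so each value is an average over the tissue.

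Endothelial cells line the vessels of the brain, are sealed by tight junctions and carry transporters that decide what passes between blood and tissue, which together make the blood-brain barrier. Pericytes lie on capillaries and smooth muscle cells wrap arteries and arterioles, where they set the width of the vessel. In the striatum these cells are a small share of the tissue next to neurons and glia, and the genes listed here are used as their markers.

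Total counts per mouse ran from 12359347 to 25030335, with a median of 16700247. Group medians were 17957804.5 in wild-type mice, 15903741 in zQ175 mice, 17593185 in Msh3-/- mice and 16225613.5 in zQ175:Msh3-/- mice, and the part of this difference in depth in the results was not tested. At the lowest total, 3 counts correspond to 0.243 CPM (counts scaled to the library's total), a floor that covers counting error only. Unless another scale is named, levels are CPM after TMM normalisation, differences between groups are log2 fold changes, and differences are counted where edgeR's quasi-likelihood test gave a Benjamini-Hochberg adjusted p under 0.05 over all 16610 genes tested and the fold change was at least 1.2. All 32 vascular genes passed the filter on low counts and were tested. As a check of the labels, Msh3 itself (ENSMUSG00000014850, chromosome 13, 92211872 to 92355003) was at 24.5 ± 1.61 CPM (SD, n = 8) in wild-type and 24.4 ± 1.53 in zQ175 mice, against 11.8 ± 1.197 in Msh3-/- and 12.9 ± 1.15 in zQ175:Msh3-/- mice. No Msh3-/- or zQ175:Msh3-/- mouse reached the lowest mouse of the genotypes with Msh3, and Msh3 fell by 51.9% in Msh3-/- against wild-type mice (edgeR adjusted p = 2.56e-15). Counts over the whole gene do not show which part of it the remaining reads came from.

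The levels of the 32 genes in wild-type striatum spanned a wide range on the TPM scale, which corrects for gene length and allows genes to be compared. Bsg, which encodes basigin, a partner of lactate transporters that neurons and glia also express, was at a mean of 656 TPM. Next came the pericyte gene Vtn (vitronectin) at 77.5 TPM, the endothelial surface antigen gene Ly6c1 at 71.6, the glucose transporter gene Slc2a1 at 67.7, the claudin gene Cldn5 at 63.5 and the pericyte gene Rgs5 at 55.9. Among these 5, the ranges of neighbouring genes over the 8 wild-type mice overlapped, so that their order is not fixed beyond the spread. At the other end, the contractile gene Myh11 was at 2.23 TPM, the intermediate filament gene Des at 1.29 and Anpep, which encodes aminopeptidase N, at 1.24. The defining genes of endothelium (Cldn5, Cdh5, Pecam1), pericytes (Pdgfrb, Rgs5) and smooth muscle (Acta2, Tagln) were thus all measured, in every mouse.

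**Figure D1:**
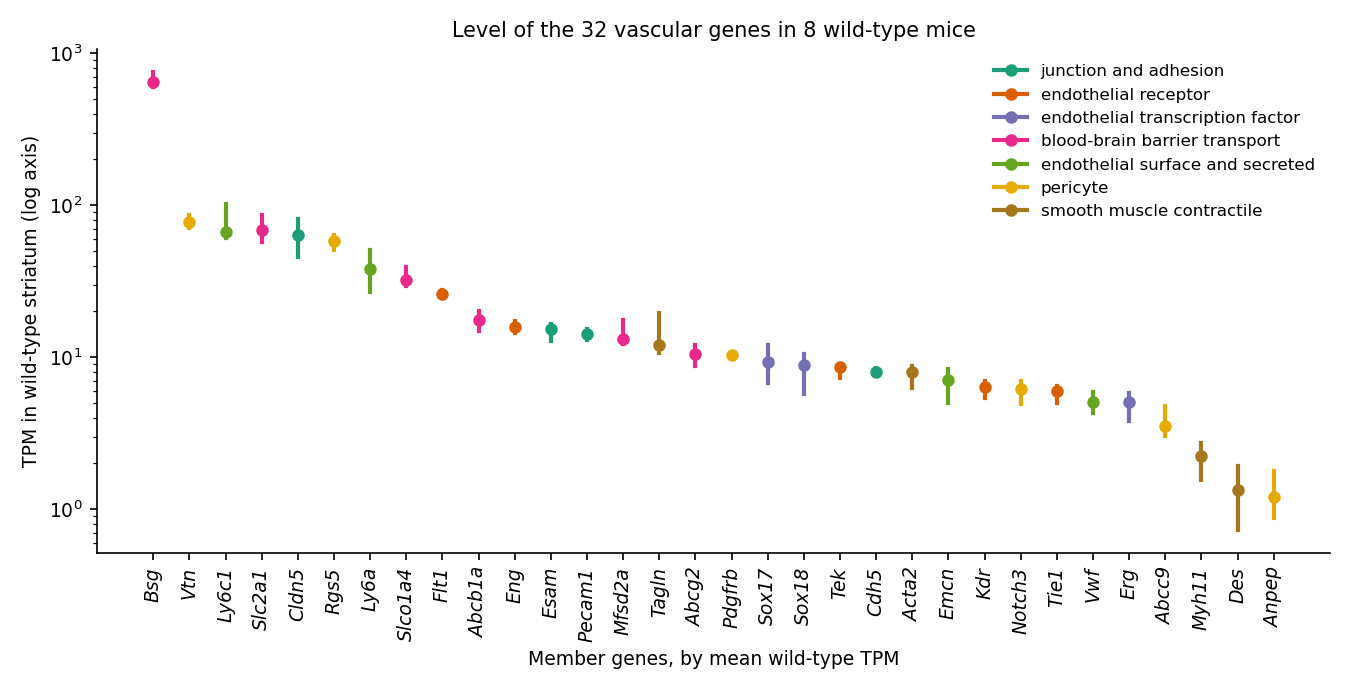
Level of each of the 32 vascular genes in the 8 wild-type mice, in TPM on a log axis. Points are medians, bars run from the lowest to the highest mouse and colours give the role: Bsg stands apart at the top, and Des and Anpep are lowest.

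Some libraries stood apart by another tissue. The summed TPM of 5 choroid plexus markers (Ttr, Folr1, Kl, Clic6 and Kcnj13, the most abundant being Ttr) exceeded 1000 in 7 mice: wild-type male replicates 2 and 3, Msh3-/- male replicate 1 and female replicates 3 and 4, zQ175 male replicate 3 and zQ175:Msh3-/- male replicate 4. The lowest, median and highest sums were 37.9, 211 and 2892 TPM in wild-type mice, 69.4, 111 and 3426 in zQ175 mice, 45.6, 274 and 3316 in Msh3-/- mice and 60.3, 137 and 5753 in zQ175:Msh3-/- mice. The choroid plexus has vessels of its own, so the counts for the 32 vascular genes between genotypes are given with all mice and without these 7, a choice made after seeing the data that kept 6 wild-type, 7 zQ175, 5 Msh3-/- and 7 zQ175:Msh3-/- mice. None of the 5 choroid plexus markers passed the test in either comparison of zQ175 with its control, where edgeR called 0 of them, but all 5 lay below 0 in both, with median log2 fold changes of -0.52 and -0.21.

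In zQ175 against wild-type striatum, the comparison that asks what the expanded repeat does with Msh3 present, 30 of the 32 vascular genes had a log2 fold change below 0 and 12 passed the thresholds. All 5 endothelial receptor genes (Flt1, Kdr, Tek, Tie1 and Eng) fell, as did 2 of 6 barrier transport genes (Slco1a4 and Abcb1a), 2 of 4 surface and secreted genes (Vwf and Emcn), 1 of 6 pericyte genes (Abcc9) and 2 of 4 smooth muscle genes (Tagln and Myh11). The junction genes and the endothelial transcription factors had no gene past both thresholds. Of the 32 fits with 1 mouse left out, the junction genes Cdh5, Pecam1 and Esam passed in 8, 4 and 1. In whole tissue, fewer vascular cells and less RNA per vascular cell cannot be told apart. Of the 32 genes, 12 passed, all of them lower, where 11.6% of all 16610 genes tested passed and 6.89% passed and were lower. By adjusted p alone 15 passed, all lower, where 26.5% of all genes did and 2245 of the 16610 did and were lower. The median log2 fold change was -0.22 over the 32 genes and 0.012 over all genes tested, and 30 of the 32 lay below 0, as did 47.0% of all genes. On the TPM scale, where the median of all genes was 0.067, 25 of the 32 lay below 0 and 6 passed by limma (Flt1, Kdr, Tek, Eng, Emcn and Tagln), or 3 with a pseudocount of 1 in place of 0.1. The share of all genes that passed on that scale is not given here.

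Single mice moved this count. Leaving out each mouse in turn gave 6 to 14 vascular genes, with 6 without zQ175 male replicate 3 and 7 each without wild-type male replicate 4 and without zQ175 male replicate 4. Flt1, Kdr, Tek, Eng, Emcn and Tagln passed whichever mouse was left out, and Slco1a4, Abcb1a, Abcc9, Tie1, Vwf and Myh11 did not. Of 13 alternative fits, the former genes passed in 13, 11, 13, 11, 10 and 13, in the order named. The latter passed in 7, 8, 9, 6, 6 and 5. Without the 7 mice with choroid plexus RNA, 7 genes passed (Flt1, Kdr, Tek, Eng, Emcn, Abcc9 and Tagln), the median was -0.20 and 29 of 32 lay below 0. With sexes taken apart, 7 passed in males alone and 5 in females alone. The shares of all genes that passed in these fits on fewer mice are not given here, so the counts lack a background. At a fold change of at least 1.5 Tagln alone was left, here and in the comparisons that follow.

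In zQ175:Msh3-/- against Msh3-/- mice, the effect of the repeat was measured without Msh3 and in mice that enter neither side of the first comparison. Those that fell were the receptor genes Tie1 and Eng, the barrier lipid transporter gene Mfsd2a, the surface antigen gene Ly6c1 and Tagln. These were 5 of the 32, all lower, where 10.6% of all genes tested passed and 5.96% passed and were lower, so the share of vascular genes was nearer the background than in the first comparison. The median log2 fold change was -0.17 over the 32 genes and 0.014 over all genes, and 31 lay below 0, as did 46.4% of all genes. On the TPM scale 27 lay below 0 and 4 passed by limma, or 2 with a pseudocount of 1, counts given without the shares of all genes on that scale. The same 5 genes passed whichever mouse was left out, while without the 7 mice with choroid plexus RNA the count was also 5, with Tek in and Ly6c1 out. In females alone only Tagln passed, and for these fits on fewer mice too the shares of all genes are not given here. Both comparisons had 3 of the 32 genes past the thresholds, Eng, Tagln and Tie1, where 7.29% of all genes tested passed in both. Of the 32, 14 genes passed in at least 1 of them and 18 in neither, and 30 of the 32 lay below 0 in both, against 35.6% of all genes tested.

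Averaged over both Msh3 genotypes, the zQ175 effect rests on 16 mice with the repeat and 16 without. By this measure Tek, Tie1, Eng, Kdr, Mfsd2a and Tagln fell past both thresholds. These were 6 of 32, where 13.7% of all genes passed and 7.38% passed and were lower, and by adjusted p alone 18 of the 32 passed, all lower, where 39.6% of all genes did and 3106 of the 16610 did and were lower. The median log2 fold change was -0.20 over the 32 genes, 31 of which lay below 0, and 0.014 over all genes. Of the 18, 12 differed by less than 1.2-fold. Kdr lost its place without Msh3-/- female replicate 1 and without zQ175:Msh3-/- male replicate 5, and the others kept theirs whichever mouse was left out. Without the 7 mice with choroid plexus RNA the same 6 passed. On the TPM scale 29 of 32 lay below 0 and 2 passed by limma, Eng and Tagln, and in males alone 11 passed and in females alone 3. The shares of all genes in these other fits are not given here, so the counts lack a background.

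The comparison of zQ175:Msh3-/- with wild-type mice shares its control mice with the first and is given beside it only for its own values. Here 12 of 32 fell (Cdh5, Flt1, Kdr, Tek, Tie1, Eng, Mfsd2a, Ly6c1, Ly6a, Emcn, Rgs5 and Tagln), where 12% of all genes passed and 6.49% passed and were lower. The median log2 fold change was -0.26 over the 32 genes and 0.014 over all genes. Rgs5, which encodes a regulator of G protein signalling found in pericytes, fell by 17.8% (log2 fold change -0.28 ± 0.057 SE, adjusted p = 0.000273 by edgeR's quasi-likelihood test, exact permutation p = 0.00109), and the cadherin gene Cdh5 fell by 17.1% (log2 fold change -0.27 ± 0.082 SE, adjusted p = 0.0127 by edgeR's quasi-likelihood test, exact permutation p = 0.00109). Leaving out each mouse in turn gave 8 to 16 genes, with 8 without zQ175:Msh3-/- male replicate 2, and the call of Cdh5 was lost without that mouse, wild-type male replicate 2, wild-type female replicates 2 and 4, zQ175:Msh3-/- male replicate 4 or zQ175:Msh3-/- female replicate 1. Rgs5 lost its call without wild-type female replicate 2 or zQ175:Msh3-/- male replicate 2. The calls of Ly6c1, Ly6a, Tie1 and Emcn were also lost on leaving out single mice, Ly6a and Ly6c1 without wild-type male replicate 4 among others, Tie1 without zQ175:Msh3-/- female replicate 1 and Emcn without zQ175:Msh3-/- male replicate 5. Without the 7 mice with choroid plexus RNA 10 passed, with Cdh5, Emcn and Ly6c1 out and Abcc9 in. On the TPM scale 27 of 32 lay below 0, against 31 in CPM, and 6 passed by limma, without Cdh5 and Rgs5. The shares of all genes in these other fits are not given here.

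**Figure D2:**
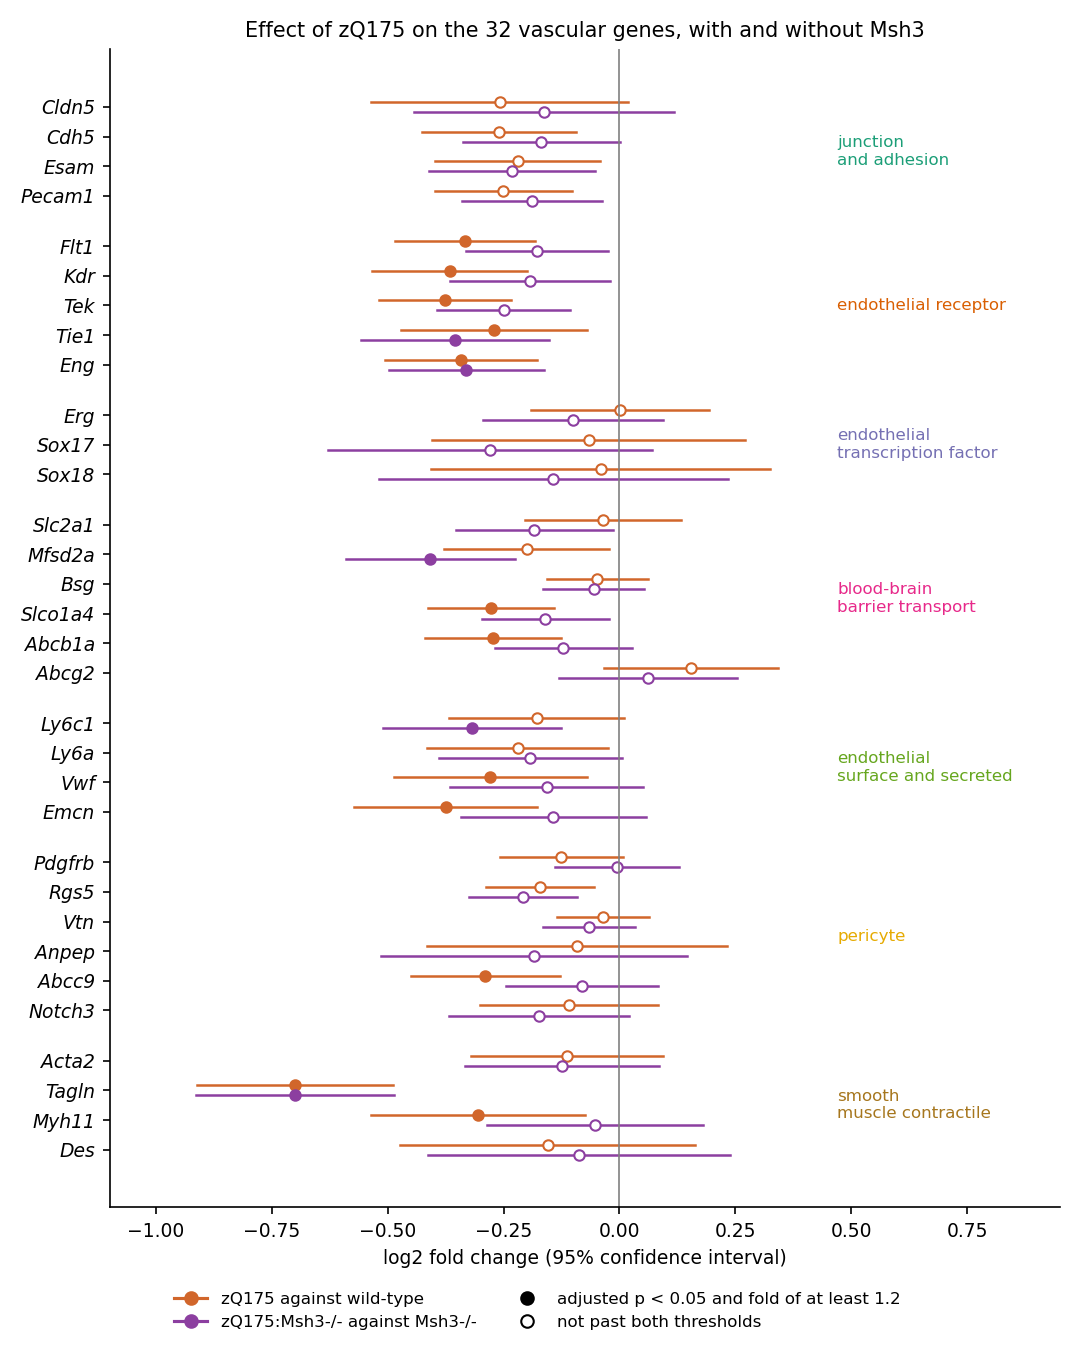
Log2 fold change of each of the 32 vascular genes in zQ175 against wild-type mice (orange) and in zQ175:Msh3-/- against Msh3-/- mice (purple), with 95% intervals, 8 mice per genotype. Filled points passed both thresholds, 0.05 for the adjusted p and 1.2 for the fold change: most points lie left of 0, with Tagln farthest out in both comparisons.

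In the main fit the 5 endothelial receptor genes were the only role in which every gene passed in zQ175 against wild-type mice. The call of Tie1 was lost on leaving out single mice and was kept in 6 of 13 alternatives, as given below. Promoters of the 5 receptor genes are shown because of the main fit. Genes of this class are textbook targets of ETS-family transcription factors such as ERG, whose binding sites share the core GGAA. The letters GGAAG were searched on both strands, CTTCC being the same letters read from the other strand, in the 250 bases before each gene's start in RefSeq (GRCm38.p6). The table has entries for 21 of the 32 vascular genes. The windows are chr5:147726012-147726261 on the minus strand for Flt1, chr5:75978456-75978705 on the minus strand for Kdr, chr4:94739039-94739288 on the plus strand for Tek, chr4:118489850-118490099 on the minus strand for Tie1 and chr2:32646345-32646594 on the plus strand for Eng. By the GENCODE coordinates given with each gene below, most of the Tie1 window and the last bases of the Kdr window lie inside the gene, because the annotations place the start differently. The windows are written 5' to 3' in the direction of the gene, with each match in capitals.
Flt1: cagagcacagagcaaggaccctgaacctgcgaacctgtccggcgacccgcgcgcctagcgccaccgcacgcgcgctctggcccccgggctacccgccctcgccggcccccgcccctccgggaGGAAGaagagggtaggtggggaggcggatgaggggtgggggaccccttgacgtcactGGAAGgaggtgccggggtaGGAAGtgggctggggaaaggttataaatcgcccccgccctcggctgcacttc
Kdr: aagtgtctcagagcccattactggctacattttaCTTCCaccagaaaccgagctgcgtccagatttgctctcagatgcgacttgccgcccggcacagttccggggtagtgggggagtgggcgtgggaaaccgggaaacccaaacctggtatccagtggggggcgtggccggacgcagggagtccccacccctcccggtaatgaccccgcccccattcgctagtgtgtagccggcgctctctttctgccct
Tek: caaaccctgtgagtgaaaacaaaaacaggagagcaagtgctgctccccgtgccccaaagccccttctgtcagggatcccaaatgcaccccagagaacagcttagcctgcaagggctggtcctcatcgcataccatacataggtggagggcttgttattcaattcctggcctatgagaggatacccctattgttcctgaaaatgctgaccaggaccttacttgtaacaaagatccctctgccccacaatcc
Tie1: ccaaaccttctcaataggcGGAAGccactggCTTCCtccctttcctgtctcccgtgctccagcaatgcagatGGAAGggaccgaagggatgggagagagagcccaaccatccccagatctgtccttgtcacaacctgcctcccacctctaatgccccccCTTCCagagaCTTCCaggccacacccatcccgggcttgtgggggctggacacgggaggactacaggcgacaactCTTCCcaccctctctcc
Eng: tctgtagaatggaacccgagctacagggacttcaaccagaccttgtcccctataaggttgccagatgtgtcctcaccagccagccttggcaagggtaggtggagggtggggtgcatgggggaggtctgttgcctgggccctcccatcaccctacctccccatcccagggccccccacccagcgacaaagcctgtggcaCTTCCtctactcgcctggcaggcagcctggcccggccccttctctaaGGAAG
Tie1 had 6 matches, Flt1 3, Eng 2, Kdr 1 and Tek 0, so that 4 of the 5 receptors held the letters. Counted by gene, at least 1 match was found in 13 of the 21 vascular genes, which have 26 entries between them. Counted by entry, which is a different unit, at least 1 was found in 64.1% of all 32851 promoter entries, at least 3 in 10.7% and at least 6 in 0.344%. A match describes the letters and is neither a binding site nor a cause.

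Flt1 (ENSMUSG00000029648, chromosome 5, 147561604 to 147726011, GRCm38) encodes VEGF receptor 1. The lowest, median and highest of 8 mice were 70.3, 75.5 and 78.9 in wild-type mice, 45.0, 60.8 and 69.9 in zQ175 mice, 55.2, 67.1 and 83.1 in Msh3-/- mice and 52.6, 57.9 and 67.9 in zQ175:Msh3-/- mice. Every zQ175 mouse lay below every wild-type mouse, while Msh3-/- mice spread over both ranges and overlapped zQ175:Msh3-/- mice. Flt1 fell by 20.6% in zQ175 against wild-type mice (log2 fold change -0.33 ± 0.074 SE, adjusted p = 0.000888 by edgeR's quasi-likelihood test, exact permutation p = 0.000155, the smallest that the arrangements of these 16 mice can give). In zQ175:Msh3-/- against Msh3-/- mice the log2 difference was -0.18 ± 0.075 SE with a 95% interval of -0.33 to -0.024 (adjusted p = 0.0847 by edgeR's quasi-likelihood test, exact permutation p = 0.0435), and the averaged effect was log2 fold change -0.26 ± 0.053 SE, adjusted p = 0.000218 by edgeR's quasi-likelihood test. Flt1 stayed past the thresholds in every alternative tried for zQ175 against wild-type but the larger fold threshold, at the edge of the fold threshold without the 7 mice with choroid plexus RNA (-0.26). In zQ175:Msh3-/- against Msh3-/- mice its log2 difference ran from -0.29 to -0.058 over 13 alternatives, and it passed in 0 of them.

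Kdr (ENSMUSG00000062960, chromosome 5, 75932827 to 75978458) encodes VEGF receptor 2, the main receptor for growth signals in endothelium. Its lowest, median and highest CPM were 13.7, 16.3 and 18.3 in wild-type mice, 11.6, 12.3 and 14.6 in zQ175 mice, 10.3, 13.0 and 16.7 in Msh3-/- mice and 8.999, 11.3 and 13.6 in zQ175:Msh3-/- mice. Of the zQ175 mice, 7 of 8 lay below the lowest wild-type mouse, and the range of Msh3-/- mice overlapped those of all 3 other genotypes. Kdr fell by 22.4% in zQ175 against wild-type mice (log2 fold change -0.37 ± 0.083 SE, adjusted p = 0.000848 by edgeR's quasi-likelihood test, exact permutation p = 0.000466) and by 17.6% in the averaged effect (log2 fold change -0.28 ± 0.059 SE, adjusted p = 0.000238 by edgeR's quasi-likelihood test). The log2 difference was -0.19 ± 0.085 SE with a 95% interval of -0.36 to -0.020 (adjusted p = 0.0982 by edgeR's quasi-likelihood test, exact permutation p = 0.0903) in zQ175:Msh3-/- against Msh3-/- mice. In the averaged effect the call was lost without Msh3-/- female replicate 1 and without zQ175:Msh3-/- male replicate 5. Msh3-/- mice themselves differed from wild-type by -0.31 (95% interval -0.47 to -0.14) at an adjusted p of 0.662 by edgeR, past the fold threshold but not that of the adjusted p.

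Tek (ENSMUSG00000006386, chromosome 4, 94739289 to 94874976) encodes TIE2, the receptor for angiopoietins. The lowest, median and highest CPM of Tek were 13.7, 16.6 and 17.4 in wild-type mice, 9.64, 12.8 and 13.6 in zQ175 mice, 12.8, 15.2 and 18.5 in Msh3-/- mice and 11.2, 12.9 and 14.0 in zQ175:Msh3-/- mice. All zQ175 mice were below all wild-type mice, and 4 of the 8 zQ175:Msh3-/- mice were below the lowest Msh3-/- mouse. It fell by 22.9% in zQ175 against wild-type (log2 fold change -0.38 ± 0.070 SE, adjusted p = 7.74e-05 by edgeR's quasi-likelihood test, exact permutation p = 0.000155) and by 19.5% in the averaged effect (log2 fold change -0.31 ± 0.050 SE, adjusted p = 3.55e-06 by edgeR's quasi-likelihood test). Without Msh3 the adjusted p passed but the fold did not, at -0.25 ± 0.071 SE with a 95% interval of -0.39 to -0.11 (adjusted p = 0.00829 by edgeR's quasi-likelihood test, exact permutation p = 0.00420). Tie1 (ENSMUSG00000033191, chromosome 4, 118471191 to 118490061) encodes the related receptor TIE1, which binds no angiopoietin by itself. Its CPM were 8.85, 10.4 and 11.7 in wild-type mice, 6.34, 8.69 and 10.7 in zQ175 mice, 8.80, 10.8 and 13.6 in Msh3-/- mice and 6.78, 8.37 and 10.6 in zQ175:Msh3-/- mice, lowest, median and highest. The groups overlapped in both comparisons. Tie1 fell by 17.1% in zQ175 against wild-type (log2 fold change -0.27 ± 0.099 SE, adjusted p = 0.0392 by edgeR's quasi-likelihood test, exact permutation p = 0.0124), by 21.8% in zQ175:Msh3-/- against Msh3-/- (log2 fold change -0.36 ± 0.10 SE, adjusted p = 0.00763 by edgeR's quasi-likelihood test, exact permutation p = 0.00544) and by 19.5% in the averaged effect (log2 fold change -0.31 ± 0.070 SE, adjusted p = 0.000462 by edgeR's quasi-likelihood test). The first of these calls was lost without any 1 of 9 mice (wild-type male replicates 3 and 4, wild-type female replicates 1 to 3, zQ175 male replicates 3 and 4 and zQ175 female replicates 1 and 4), and without the 7 mice with choroid plexus RNA, where the log2 fold change was -0.22 (adjusted p = 0.143 by edgeR). The other calls of these zQ175 effects on Tie1 held whichever mouse was left out, and that in zQ175:Msh3-/- against wild-type mice was lost without zQ175:Msh3-/- female replicate 1. Of 13 alternatives, the call of Tie1 in zQ175 against wild-type was kept in 6. Its call in zQ175:Msh3-/- against Msh3-/- was kept in 9 and that in the averaged effect in 10.

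Eng (ENSMUSG00000026814, chromosome 2, 32646595 to 32682669) encodes endoglin, a co-receptor of TGF-beta and BMP9 signalling in endothelium. Lowest, median and highest CPM were 20.9, 23.1 and 24.9 in wild-type mice, 14.4, 18.1 and 23.1 in zQ175 mice, 17.6, 21.1 and 26.0 in Msh3-/- mice and 14.6, 17.0 and 18.7 in zQ175:Msh3-/- mice. Of the zQ175 mice 7 of 8 lay under the lowest wild-type mouse, and 5 of 8 zQ175:Msh3-/- mice lay under the lowest Msh3-/- mouse. Eng fell by 21.1% in zQ175 against wild-type (log2 fold change -0.34 ± 0.081 SE, adjusted p = 0.00145 by edgeR's quasi-likelihood test, exact permutation p = 0.00140), by 20.5% in zQ175:Msh3-/- against Msh3-/- (log2 fold change -0.33 ± 0.082 SE, adjusted p = 0.00282 by edgeR's quasi-likelihood test, exact permutation p = 0.00295) and by 20.8% in the averaged effect (log2 fold change -0.34 ± 0.058 SE, adjusted p = 1.33e-05 by edgeR's quasi-likelihood test). These calls held whichever mouse was left out and without the 7 mice with choroid plexus RNA. Of 13 alternatives besides the larger fold threshold, each call was kept in 11. Over these the log2 fold change in zQ175:Msh3-/- against Msh3-/- mice ran from -0.43 to -0.21. Eng overlaps the gene Fpgs over 61 bases on the other strand, and Fpgs differed the other way, by 0.21 in zQ175 against wild-type. The sources do not say whether counting used the strand, so reads of the overlap may belong to either gene.

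**Figure D3:**
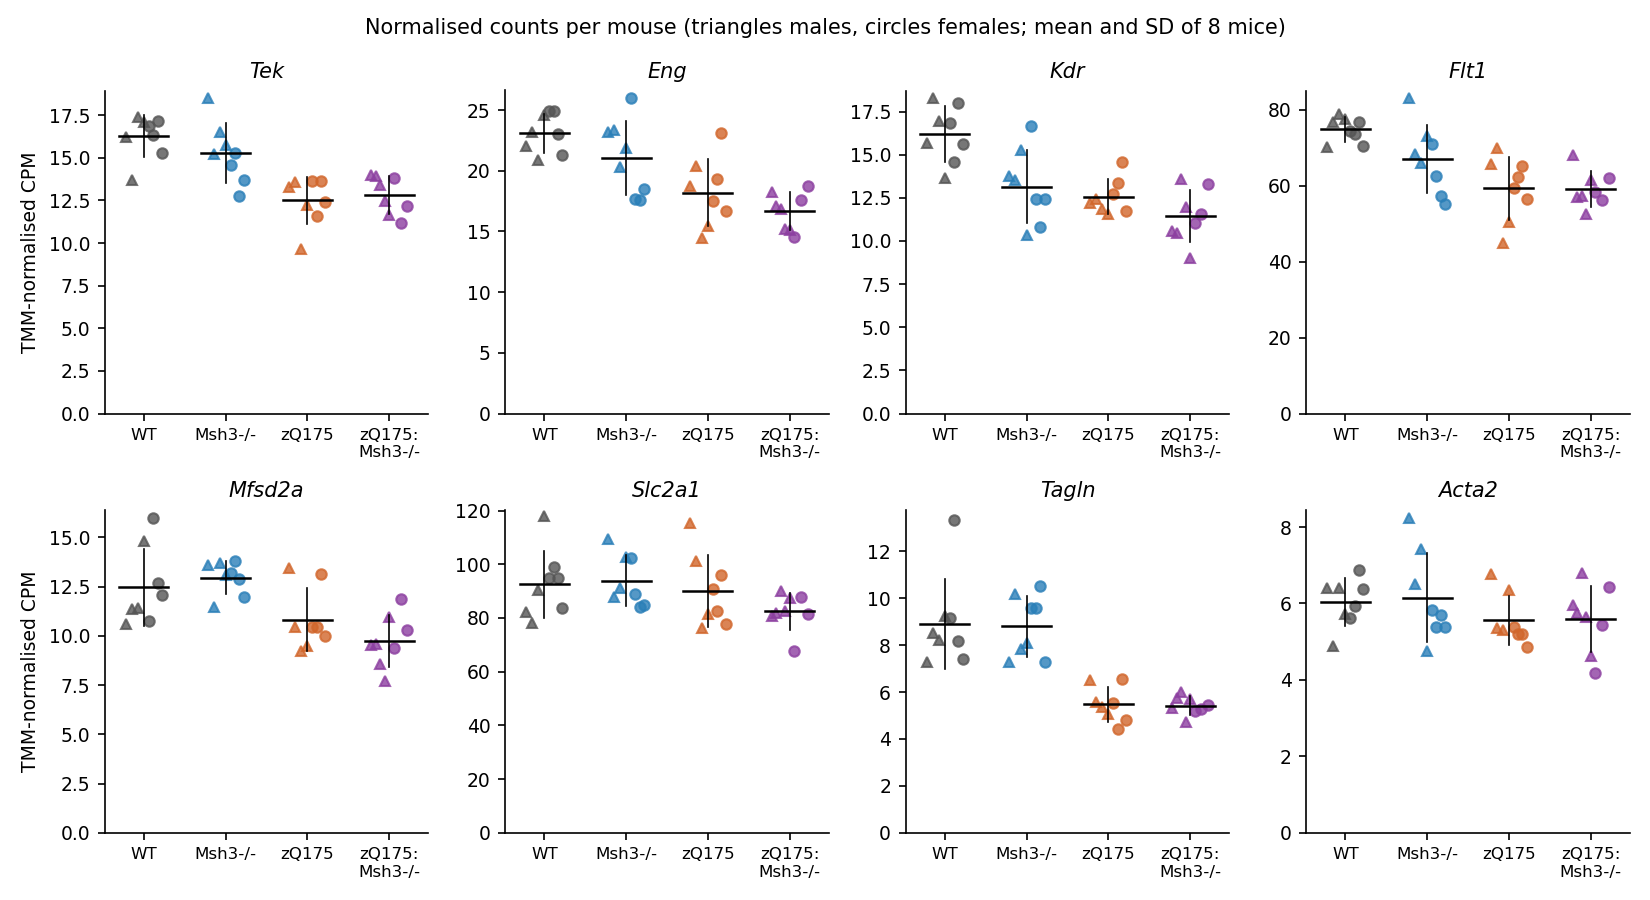
TMM-normalised CPM of 8 vascular genes in each mouse (triangles males, circles females), with mean and SD of 8 mice per genotype and axes from 0. Tagln is separated between mice with and without the repeat in both Msh3 genotypes, Tek and Flt1 between zQ175 and wild-type mice, and Slc2a1 and Acta2 overlap.

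The 4 genes of junctions and adhesion had no gene past both thresholds in either zQ175 comparison, and all 4 lay below 0 in each. Cldn5 (ENSMUSG00000041378, chromosome 16, 18776847 to 18778262) encodes claudin-5, the main claudin of the endothelial tight junction. Its CPM were 27.6, 39.0 and 50.5 in wild-type mice, 25.9, 33.3 and 39.3 in zQ175 mice, 26.1, 34.5 and 49.6 in Msh3-/- mice and 24.8, 32.2 and 37.8 in zQ175:Msh3-/- mice, lowest, median and highest. The groups overlapped widely, and the Msh3-/- mice formed a higher and a lower set. The log2 difference of Cldn5 was -0.26 ± 0.14 SE with a 95% interval of -0.54 to 0.019 (adjusted p = 0.1699 by edgeR's quasi-likelihood test, exact permutation p = 0.0452) in zQ175 against wild-type mice and -0.16 ± 0.14 SE with a 95% interval of -0.44 to 0.12 (adjusted p = 0.429 by edgeR's quasi-likelihood test, exact permutation p = 0.382) in zQ175:Msh3-/- against Msh3-/- mice. Without the 7 mice with choroid plexus RNA the first was -0.12 (adjusted p = 0.604 by edgeR). Over 13 alternatives this first difference ran from -0.46 to -0.044, and Cldn5 passed in 0 of them. For Cdh5, which encodes VE-cadherin of the adherens junction, edgeR's adjusted p of 0.0159 passed in zQ175 against wild-type mice while the fold did not (log2 -0.26, 95% interval -0.43 to -0.094). The same held for Pecam1, the platelet endothelial adhesion molecule, at -0.25 (-0.40 to -0.10, edgeR adjusted p = 0.00913). Esam, another adhesion molecule of endothelial contacts, was at -0.22 (-0.40 to -0.043, edgeR adjusted p = 0.0593). Without Msh3 the differences of these 3 ran from -0.23 to -0.17.

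None of the 3 endothelial transcription factor genes passed in either zQ175 comparison, where edgeR called 0 of them. Erg (ENSMUSG00000040732, chromosome 16, 95359169 to 95586593), an ETS factor needed for endothelial identity, had lowest, median and highest CPM of 3.87, 5.30 and 6.02 in wild-type mice, 4.61, 5.06 and 6.12 in zQ175 mice, 4.43, 5.18 and 5.90 in Msh3-/- mice and 3.60, 5.10 and 5.49 in zQ175:Msh3-/- mice. The genotypes overlapped throughout. Its log2 difference was 0.0011 ± 0.094 SE with a 95% interval of -0.19 to 0.19 (adjusted p = 0.994 by edgeR's quasi-likelihood test, exact permutation p = 0.936) in zQ175 against wild-type mice and -0.10 ± 0.096 SE with a 95% interval of -0.29 to 0.094 (adjusted p = 0.492 by edgeR's quasi-likelihood test, exact permutation p = 0.284) in zQ175:Msh3-/- against Msh3-/- mice. The sign of the first changed with the normalisation and with single mice. Sox17, an arterial endothelial factor, was at -0.066 (-0.40 to 0.27) and -0.28 (-0.63 to 0.070) in these comparisons, and its relative Sox18 at -0.040 (-0.41 to 0.33) and -0.14 (-0.52 to 0.24). Sox17 and Sox18 varied most between mice of a genotype among the 32 genes, and falls of the size seen in the receptors lie within these intervals.

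Of the 6 genes of transport at the barrier, Slco1a4 and Abcb1a fell in zQ175 against wild-type mice and Mfsd2a fell in zQ175:Msh3-/- against Msh3-/- mice. Slco1a4 (ENSMUSG00000030237, chromosome 6, 141805440 to 141856199) encodes an organic anion transporter of brain endothelium and had CPM of 36.7, 40.8 and 49.1 in wild-type mice, 30.8, 33.4 and 42.3 in zQ175 mice, 32.6, 38.7 and 44.0 in Msh3-/- mice and 29.6, 35.0 and 40.0 in zQ175:Msh3-/- mice, lowest, median and highest. Among zQ175 mice 7 of 8 were below the lowest wild-type mouse. It fell by 17.5% in zQ175 against wild-type (log2 fold change -0.28 ± 0.067 SE, adjusted p = 0.00173 by edgeR's quasi-likelihood test, exact permutation p = 0.00171), and was at -0.16 ± 0.067 SE with a 95% interval of -0.30 to -0.023 (adjusted p = 0.0812 by edgeR's quasi-likelihood test, exact permutation p = 0.0444) without Msh3. The call was lost through the fold threshold without wild-type male replicate 3, wild-type female replicate 1 or zQ175 male replicate 1, 3 or 4, and without the 7 mice with choroid plexus RNA, at -0.23 (adjusted p = 0.0266 by edgeR). Abcb1a (ENSMUSG00000040584, chromosome 5, 8660077 to 8748575) encodes the efflux pump P-glycoprotein, with CPM of 32.2, 37.7 and 43.3 in wild-type mice, 23.2, 32.4 and 36.0 in zQ175 mice, 30.1, 35.7 and 39.4 in Msh3-/- mice and 26.7, 32.7 and 36.1 in zQ175:Msh3-/- mice. All zQ175 mice lay below the wild-type median, but the ranges overlapped. Abcb1a fell by 17.2% in zQ175 against wild-type (log2 fold change -0.27 ± 0.072 SE, adjusted p = 0.00422 by edgeR's quasi-likelihood test, exact permutation p = 0.00280) and was at -0.12 ± 0.073 SE with a 95% interval of -0.27 to 0.026 (adjusted p = 0.241 by edgeR's quasi-likelihood test, exact permutation p = 0.0852) without Msh3. It lost its call, again through the fold, without wild-type male replicate 3 or 4 or zQ175 male replicate 3 or 4, and without the 7 mice with choroid plexus RNA, at -0.22 (adjusted p = 0.0133 by edgeR). The log2 fold change of Abcb1a nearest 0 was -0.18, in females alone, where the call was lost too.

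Mfsd2a (ENSMUSG00000028655, chromosome 4, 122946850 to 122961188) encodes a lysolipid transporter that keeps vesicle traffic across brain endothelium low. Its lowest, median and highest CPM were 10.6, 11.8 and 16.0 in wild-type mice, 9.25, 10.5 and 13.4 in zQ175 mice, 11.45, 13.2 and 13.8 in Msh3-/- mice and 7.73, 9.56 and 11.9 in zQ175:Msh3-/- mice. Among zQ175:Msh3-/- mice 7 of 8 lay below the lowest Msh3-/- mouse, and 6 of 8 zQ175 mice lay below the lowest wild-type mouse. It fell by 24.6% in zQ175:Msh3-/- against Msh3-/- (log2 fold change -0.41 ± 0.090 SE, adjusted p = 0.000718 by edgeR's quasi-likelihood test, exact permutation p = 0.000311) and by 19.0% in the averaged effect (log2 fold change -0.30 ± 0.063 SE, adjusted p = 0.000167 by edgeR's quasi-likelihood test). In zQ175 against wild-type mice it was at -0.20 ± 0.088 SE with a 95% interval of -0.38 to -0.022 (adjusted p = 0.0914 by edgeR's quasi-likelihood test, exact permutation p = 0.0777). The difference between these effects, tested as an interaction, was -0.21 (95% interval -0.46 to 0.047, edgeR adjusted p = 0.999), so the effects were not shown to differ. Slc2a1 (ENSMUSG00000028645, chromosome 4, 119108711 to 119137983) encodes GLUT1, through which glucose enters the brain, and had CPM of 78.2, 92.7 and 118 in wild-type mice, 76.2, 86.6 and 115 in zQ175 mice, 84.0, 90.2 and 109 in Msh3-/- mice and 67.7, 82.4 and 89.9 in zQ175:Msh3-/- mice. The ranges overlapped, and each zQ175:Msh3-/- mouse was below the Msh3-/- median. Slc2a1 was at -0.036 ± 0.082 SE with a 95% interval of -0.20 to 0.13 (adjusted p = 0.803 by edgeR's quasi-likelihood test, exact permutation p = 0.669) in zQ175 against wild-type, a sign that turns on the TPM scale, and at -0.18 ± 0.083 SE with a 95% interval of -0.35 to -0.014 (adjusted p = 0.109 by edgeR's quasi-likelihood test, exact permutation p = 0.0107) in zQ175:Msh3-/- against Msh3-/- mice. Bsg was at -0.048 (-0.16 to 0.061) and -0.056 (-0.16 to 0.053) in the same comparisons. Abcg2, which encodes another efflux pump, was the only gene of the 32 above 0 in both, at 0.15 (-0.034 to 0.34) and 0.062 (-0.13 to 0.25), with no adjusted p under 0.05.

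Of the 4 genes of the endothelial surface or secretion, Vwf and Emcn fell in zQ175 against wild-type mice and Ly6c1 in zQ175:Msh3-/- against Msh3-/- mice. Vwf (ENSMUSG00000001930, chromosome 6, 125546774 to 125686679) encodes von Willebrand factor, stored in endothelial granules and released at injury. Its CPM were 13.7, 15.5 and 17.9 in wild-type mice, 9.90, 13.4 and 16.0 in zQ175 mice, 12.3, 16.5 and 19.1 in Msh3-/- mice and 11.9, 13.7 and 17.2 in zQ175:Msh3-/- mice, lowest, median and highest. There was overlap in each pair of groups, with 6 of 8 zQ175 mice below the lowest wild-type mouse. Vwf fell by 17.6% in zQ175 against wild-type (log2 fold change -0.28 ± 0.10 SE, adjusted p = 0.0406 by edgeR's quasi-likelihood test, exact permutation p = 0.0143) and was at -0.16 ± 0.10 SE with a 95% interval of -0.36 to 0.051 (adjusted p = 0.288 by edgeR's quasi-likelihood test, exact permutation p = 0.158) without Msh3. The call was lost without any 1 of 8 mice (wild-type male replicates 3 and 4, wild-type female replicates 2 to 4, zQ175 male replicates 3 and 4 and zQ175 female replicate 4) and without the 7 mice with choroid plexus RNA, at -0.26 (adjusted p = 0.0625 by edgeR). With limma on log2 TPM the log2 fold change of Vwf was -0.097, or -0.081 with a pseudocount of 1, and the call was lost. Emcn (ENSMUSG00000054690, chromosome 3, 137341067 to 137432185) encodes endomucin, a sialomucin of capillary and venous endothelium, at CPM of 4.45, 5.54 and 6.33 in wild-type mice, 3.66, 4.23 and 4.87 in zQ175 mice, 3.92, 5.13 and 5.74 in Msh3-/- mice and 3.19, 4.58 and 5.53 in zQ175:Msh3-/- mice. Each zQ175 mouse was below the wild-type median and 5 of 8 were below its lowest mouse. Emcn fell by 22.9% in zQ175 against wild-type (log2 fold change -0.38 ± 0.097 SE, adjusted p = 0.00332 by edgeR's quasi-likelihood test, exact permutation p = 0.000622) and was at -0.14 ± 0.098 SE with a 95% interval of -0.34 to 0.057 (adjusted p = 0.316 by edgeR's quasi-likelihood test, exact permutation p = 0.190) without Msh3, with an interaction of 0.23 (-0.048 to 0.51). Ly6c1 fell by 19.8% in zQ175:Msh3-/- against Msh3-/- mice (log2 fold change -0.32 ± 0.094 SE, adjusted p = 0.0121 by edgeR's quasi-likelihood test, exact permutation p = 0.000622), was at -0.18 (-0.37 to 0.011) in zQ175 against wild-type, and lost its call without the 7 mice with choroid plexus RNA, at -0.30 (adjusted p = 0.0712 by edgeR). Ly6a, which encodes the surface antigen Sca-1, was at -0.22 (-0.41 to -0.024) and -0.19 (-0.39 to 0.0063).

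Of the 6 pericyte genes 1 passed in zQ175 against wild-type mice and 0 by edgeR in zQ175:Msh3-/- against Msh3-/- mice. Pdgfrb (ENSMUSG00000024620, chromosome 18, 61045150 to 61085061) encodes the PDGF receptor beta that recruits pericytes to vessels, with CPM of 22.6, 24.0 and 25.5 in wild-type mice, 17.7, 22.2 and 25.9 in zQ175 mice, 20.4, 23.1 and 26.9 in Msh3-/- mice and 20.3, 23.4 and 27.8 in zQ175:Msh3-/- mice. Its ranges overlapped in each pair of genotypes, although 6 of 8 zQ175 mice were below the lowest wild-type mouse. Pdgfrb was at -0.13 ± 0.066 SE with a 95% interval of -0.26 to 0.0078 (adjusted p = 0.165 by edgeR's quasi-likelihood test, exact permutation p = 0.0420) in zQ175 against wild-type and at -0.0051 ± 0.066 SE with a 95% interval of -0.14 to 0.13 (adjusted p = 0.968 by edgeR's quasi-likelihood test, exact permutation p = 0.888) in zQ175:Msh3-/- against Msh3-/- mice. Abcc9 (ENSMUSG00000030249, chromosome 6, 142587862 to 142702315) encodes SUR2, a subunit of ATP-sensitive potassium channels in pericytes and muscle, at CPM of 9.56, 11.3 and 14.9 in wild-type mice, 7.96, 9.92 and 11.1 in zQ175 mice, 9.91, 10.4 and 11.9 in Msh3-/- mice and 8.76, 9.75 and 11.3 in zQ175:Msh3-/- mice. Each zQ175 mouse lay below the wild-type median and 3 of 8 lay below its lowest mouse. Abcc9 fell by 18.2% in zQ175 against wild-type (log2 fold change -0.29 ± 0.079 SE, adjusted p = 0.00558 by edgeR's quasi-likelihood test, exact permutation p = 0.0134) and was at -0.081 ± 0.081 SE with a 95% interval of -0.25 to 0.082 (adjusted p = 0.509 by edgeR's quasi-likelihood test, exact permutation p = 0.132) without Msh3, with an interaction of 0.21 (-0.022 to 0.44). This call was lost without wild-type male replicate 4, wild-type female replicate 2, zQ175 male replicate 3 or zQ175 female replicate 4, and kept without the 7 mice with choroid plexus RNA. The log2 fold change of Abcc9 nearest 0 was -0.19, with limma on log2(TPM + 1), where the call was lost too. Rgs5 passed by adjusted p but not by fold, at -0.17 (-0.29 to -0.055, edgeR adjusted p = 0.0236) and -0.21 (-0.33 to -0.091, edgeR adjusted p = 0.00713). Notch3, the Notch receptor of mural cells, was at -0.11 (-0.30 to 0.084) and -0.17 (-0.37 to 0.021), and is uncertain because the antisense gene Gm17276 shares 21024 of its 46033 bases and differed in the same direction, by -0.33 in zQ175 against wild-type. Vtn was at -0.035 (-0.13 to 0.065) and -0.066 (-0.17 to 0.034), which leaves no room for a fall of the size seen in the receptors, and Anpep at -0.091 (-0.41 to 0.23) and -0.18 (-0.51 to 0.15), which leaves room for such a fall.

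The largest difference among the 32 genes was that of Tagln (ENSMUSG00000032085, chromosome 9, 45929619 to 45936058), which encodes transgelin, an actin-binding protein of contractile smooth muscle. Lowest, median and highest CPM were 7.29, 8.38 and 13.3 in wild-type mice, 4.41, 5.45 and 6.54 in zQ175 mice, 7.28, 8.84 and 10.5 in Msh3-/- mice and 4.72, 5.38 and 5.99 in zQ175:Msh3-/- mice. No mouse with the repeat reached the lowest mouse of its control genotype in either comparison. Tagln fell by 38.4% in zQ175 against wild-type (log2 fold change -0.70 ± 0.10 SE, adjusted p = 2.37e-06 by edgeR's quasi-likelihood test, exact permutation p = 0.000155) and by 38.4% in zQ175:Msh3-/- against Msh3-/- mice (log2 fold change -0.70 ± 0.11 SE, adjusted p = 3.46e-06 by edgeR's quasi-likelihood test, exact permutation p = 0.000155). The averaged effect was log2 fold change -0.70 ± 0.074 SE, adjusted p = 1.02e-09 by edgeR's quasi-likelihood test. Both permutation p-values are the smallest that can be had, and the calls held in every alternative and whichever mouse was left out. On the other strand Tagln overlaps Pcsk7 over 108 bases and the antisense transcript Gm48529 over 3627 of its 6440 bases, and the differences of these genes in zQ175 against wild-type mice were 0.15 and 0.12. Reads from the shared bases cannot be assigned without knowing how strand was handled.

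The other smooth muscle genes had smaller differences than Tagln. Acta2 (ENSMUSG00000035783, chromosome 19, 34241090 to 34255590), the gene of smooth muscle actin, had lowest, median and highest CPM of 4.90, 6.16 and 6.89 in wild-type mice, 4.87, 5.34 and 6.76 in zQ175 mice, 4.75, 5.75 and 8.25 in Msh3-/- mice and 4.19, 5.69 and 6.79 in zQ175:Msh3-/- mice. Its ranges overlapped in every pair of genotypes. Acta2 was at -0.11 ± 0.10 SE with a 95% interval of -0.32 to 0.093 (adjusted p = 0.458 by edgeR's quasi-likelihood test, exact permutation p = 0.144) in zQ175 against wild-type and at -0.12 ± 0.10 SE with a 95% interval of -0.33 to 0.086 (adjusted p = 0.423 by edgeR's quasi-likelihood test, exact permutation p = 0.316) in zQ175:Msh3-/- against Msh3-/- mice, intervals that do not reach the fall of Tagln. Myh11, the smooth muscle myosin heavy chain gene, fell by 19.1% in zQ175 against wild-type (log2 fold change -0.31 ± 0.11 SE, adjusted p = 0.0426 by edgeR's quasi-likelihood test, exact permutation p = 0.0331) and was at -0.053 (-0.29 to 0.18) without Msh3. Leaving out the 7 mice with choroid plexus RNA turned the value without Msh3 to 0.053 (adjusted p = 0.797 by edgeR). The call of Myh11 was lost without any 1 of 9 mice (wild-type male replicates 1 to 4, wild-type female replicate 3, zQ175 male replicates 3 and 4 and zQ175 female replicates 2 and 4) and without the 7 mice with choroid plexus RNA, at -0.16 (adjusted p = 0.289 by edgeR). Des, the desmin gene, was at -0.15 (-0.47 to 0.16) and -0.088 (-0.41 to 0.24), intervals that allow either a rise or a fall.

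Loss of Msh3 in zQ175 mice, the comparison that asks whether the knockout alters the zQ175 state, left no vascular gene past the thresholds. In zQ175:Msh3-/- against zQ175 mice edgeR called 0 of the 32, where 0.00602% of all genes passed, a share that is Msh3 alone. DESeq2 also called 0, as did edgeR without the 7 mice with choroid plexus RNA, and 0 of the 32 had an unadjusted p under 0.05 by edgeR. The median log2 fold change was -0.015 over the 32 genes and 0.0026 over all genes, and 22 lay below 0, as did 48.3% of all genes. The 95% interval was -0.24 to 0.20 for Tagln, -0.16 to 0.15 for Flt1, -0.11 to 0.18 for Tek and -0.29 to 0.041 for Eng. The zQ175 effect on these genes was -0.70, -0.33, -0.38 and -0.34, so a rise as large as the fall in zQ175 mice lies outside each of these intervals. The extremes of the 32 were Sox17 at -0.33 (-0.68 to 0.016) and Vwf at 0.16 (-0.054 to 0.37). Vwf also fell in zQ175 against wild-type mice, and its interval here includes a rise as large as that fall. Myh11, which fell there too, had means of 6.27 CPM in wild-type, 5.06 in zQ175 and 5.62 in zQ175:Msh3-/- mice. The remaining called genes are not set against their intervals here.

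Without the repeat, Msh3-/- against wild-type mice also gave 0 of 32 by edgeR and by DESeq2, where 0.00602% of all genes passed, again Msh3 alone. Flt1 (-0.16, 95% interval -0.31 to -0.011) and Kdr (-0.31, -0.47 to -0.14) were the 2 genes with an unadjusted p under 0.05, named after their values were seen, and their adjusted p were 0.926 and 0.662 by edgeR. The median over the 32 was -0.071, and 21 lay below 0, as did 50.0% of all genes, whose median was -5.9e-05. This comparison shares its wild-type mice with the first and its Msh3-/- mice with the second, so low Msh3-/- values of Flt1 and Kdr also enter their smaller zQ175 effect without Msh3. The test of whether the zQ175 effect differed between Msh3 genotypes, the interaction, gave 0 of 32 by edgeR and DESeq2, where 0% of all genes passed and 0 of the 32 had an unadjusted p under 0.05. Its estimates ran from -0.21 (Sox17) to 0.25 (Myh11), with a median of 0.0055 (0.0040 over all genes), and for Tagln it was -0.0005 (-0.29 to 0.29).

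Between males and females, with genotype in the model, edgeR called 0 of 32 and DESeq2 0, where 0.169% of all genes passed. At an unadjusted p under 0.05 by edgeR there were 4, with values above 0 for higher levels in males: Anpep at 0.30 (95% interval 0.086 to 0.52), Notch3 at 0.14 (0.014 to 0.27), Myh11 at 0.16 (0.0012 to 0.32) and Rgs5 at -0.10 (-0.18 to -0.028). Their smallest adjusted p was 0.317 (edgeR), and the 4 were named after their values were seen. All 5 choroid plexus markers were above 0 here, with a median of 1.33, and 0 of them passed by edgeR. With sex in the model the counts of vascular genes called for the zQ175 effect were those given above.

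From mouse to mouse within a genotype, the 32 vascular genes had a median residual SD of 0.181 in log2 CPM, and all genes tested had 0.136. Vtn, Bsg and Rgs5 were below that of all genes, and Vtn was the steadiest at 0.103 and Sox18 the most variable at 0.387. Whether vascular genes vary together was asked of 8 pairs over 32 mice, after removal of each genotype's mean and with p-values adjusted over the 8. Cldn5 followed Cdh5, with Pearson's r = 0.56 (permutation p = 0.00106, adjusted p = 0.00848) and rho = 0.57 (permutation p = 0.000830, adjusted p = 0.00664). Without wild-type female replicate 2 and Msh3-/- female replicate 2, the mice farthest from the median of Cldn5, r was 0.65 (adjusted permutation p = 0.00088), and r was 0.66 in males and 0.47 in females. Cldn5 with Flt1 gave r = 0.43 (permutation p = 0.0138, adjusted p = 0.0369) and rho = 0.44 (permutation p = 0.0125, adjusted p = 0.0333). Its adjusted p was 0.0615 by permutation without the same mice, although r was 0.44 there, and r was 0.28 in males and 0.67 in females.

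Acta2 and Cldn5, a smooth muscle and an endothelial gene, gave r = 0.46 (permutation p = 0.00780, adjusted p = 0.0312) and rho = 0.47 (permutation p = 0.00755, adjusted p = 0.0302). Without Msh3-/- male replicate 1 and zQ175:Msh3-/- female replicate 1 r was 0.38 and no longer past the threshold (adjusted permutation p = 0.0972), with fewer mice. In the 2 pairs of smooth muscle genes asked no relation was detected. Acta2 with Tagln gave r = -0.046 (permutation p = 0.803, adjusted p = 0.999) and rho = -0.026 (permutation p = 0.890, adjusted p = 0.890), and with Myh11 r = 0.31 (permutation p = 0.0879, adjusted p = 0.176) and rho = 0.23 (permutation p = 0.205, adjusted p = 0.410). For the fibroblast gene Col1a1, which marks the vessel's outer sheath, Acta2 had r = -0.00018 (permutation p = 0.999, adjusted p = 0.999) and rho = 0.042 (permutation p = 0.820, adjusted p = 0.890). The pericyte genes Rgs5 and Vtn gave r = 0.011 (permutation p = 0.954, adjusted p = 0.999) and rho = -0.026 (permutation p = 0.888, adjusted p = 0.890), and Cldn5 with Rgs5 r = -0.20 (permutation p = 0.268, adjusted p = 0.428) and rho = -0.16 (permutation p = 0.377, adjusted p = 0.603).

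**Figure D4:**
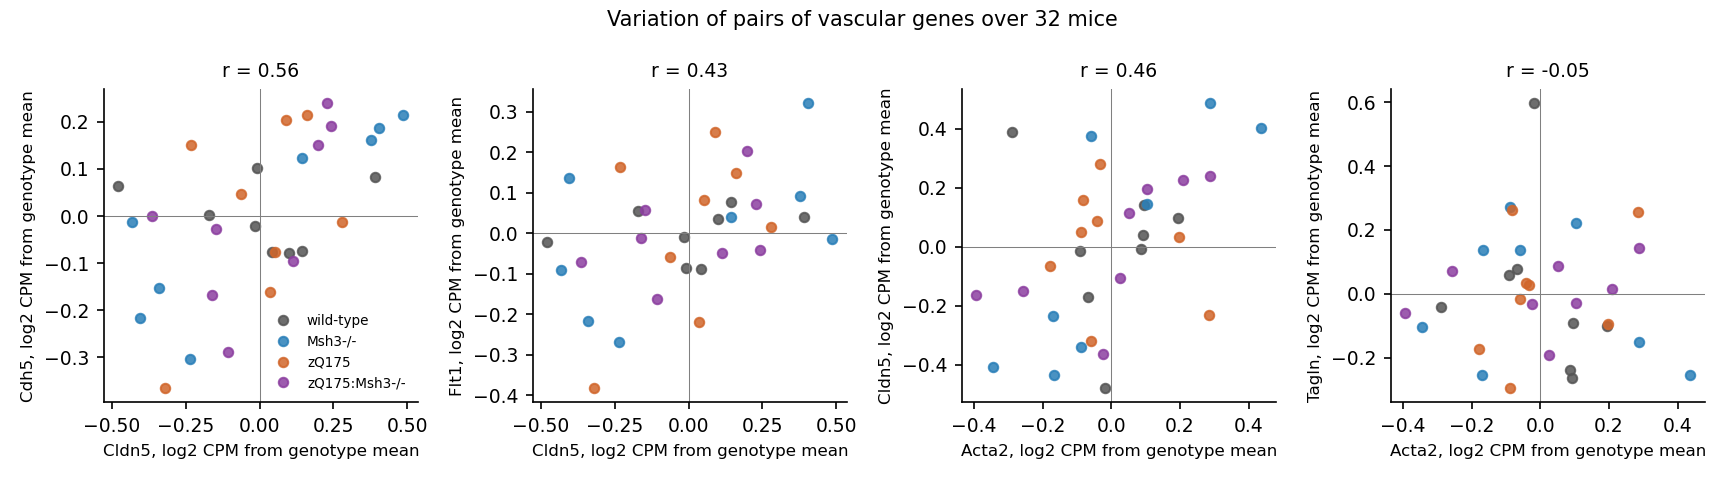
Variation of 4 pairs of vascular genes over 32 mice, each axis the log2 CPM from the mean of the mouse's genotype, with colours for genotype. Cldn5 and Cdh5 rise together (r = 0.56), Cldn5 and Flt1 and Acta2 and Cldn5 less so (0.43 and 0.46), and Acta2 and Tagln form no line (-0.046).

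Beyond the 32 genes, 108 other genes of the vessel wall were listed by role, of which 102 were tested. Of these 15 fell in zQ175 against wild-type and 15 in zQ175:Msh3-/- against Msh3-/- mice, with 0 higher by edgeR in either, and their median log2 fold changes were -0.14 and -0.12, against 0.012 and 0.014 over all genes tested. Of all genes tested 6.89% and 5.96% passed and were lower in these comparisons, and several of the lists lay near that share. The counts for the first comparison were 2 of 22 for other tight junction and barrier genes, 2 of 16 for growth factors and ligands, 5 of 19 for other vascular receptors, 2 of 16 for other transcription factors, 2 of 11 for genes of arterial, capillary or venous zonation and 2 of 18 for other pericyte and smooth muscle genes. In the second, in the same order, they were 1, 3, 3, 3, 3 and 2. These lists hold genes that neurons and glia also express, so a fall of such a gene is not a measure of vessels alone. Jag1, a Notch ligand, with medians of 14.9 CPM in wild-type and 7.40 CPM in zQ175 mice, differed by -1.104 ± 0.11 SE (log2, adjusted p = 1.32e-09 by edgeR) in zQ175 against wild-type. Its difference without Msh3 was -0.71 ± 0.11 SE (edgeR adjusted p = 8.15e-06). Edn1, the endothelin 1 gene, with medians of 2.83 CPM in wild-type and 1.96 CPM in zQ175 mice, differed by -0.52 ± 0.15 SE (log2, adjusted p = 0.00895 by edgeR) in zQ175 against wild-type. The value in zQ175:Msh3-/- against Msh3-/- mice was -0.31 ± 0.16 SE (edgeR adjusted p = 0.155). Among receptors, Acvrl1, the gene of ALK1, a partner of endoglin, with medians of 52.4 CPM in wild-type and 25.6 CPM in zQ175 mice, differed by -0.92 ± 0.10 SE (log2, adjusted p = 3.65e-08 by edgeR) in zQ175 against wild-type. For Acvrl1 without Msh3 the value was -0.80 ± 0.10 SE (edgeR adjusted p = 6.31e-07).

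Adgra2, which encodes GPR124, a co-receptor of WNT7 signals in brain endothelium, with medians of 16.0 CPM in wild-type and 12.8 CPM in zQ175 mice, differed by -0.40 ± 0.081 SE (log2, adjusted p = 0.000211 by edgeR) in zQ175 against wild-type. Adgra2 was at -0.28 ± 0.081 SE (edgeR adjusted p = 0.00912) without Msh3. Robo4, an endothelial roundabout receptor, with medians of 6.19 CPM in wild-type and 5.15 CPM in zQ175 mice, differed by -0.32 ± 0.095 SE (log2, adjusted p = 0.00984 by edgeR) in zQ175 against wild-type. Its difference without Msh3 was -0.23 ± 0.097 SE (edgeR adjusted p = 0.0748). Notch4, an endothelial Notch receptor, with medians of 6.63 CPM in wild-type and 5.65 CPM in zQ175 mice, differed by -0.33 ± 0.11 SE (log2, adjusted p = 0.0191 by edgeR) in zQ175 against wild-type. The value in zQ175:Msh3-/- against Msh3-/- mice was -0.34 ± 0.11 SE (edgeR adjusted p = 0.0226). Adgra2 and Notch4 thus passed in both comparisons, and Robo4 passed in the first and missed both thresholds in the second, with estimates whose errors overlap. Of the transcription factors, Hey1, a Notch target, with medians of 67.9 CPM in wild-type and 52.9 CPM in zQ175 mice, differed by -0.39 ± 0.041 SE (log2, adjusted p = 1.96e-09 by edgeR) in zQ175 against wild-type. For Hey1 without Msh3 the value was -0.31 ± 0.042 SE (edgeR adjusted p = 3.39e-07). Lef1, a factor of WNT signalling, with medians of 5.60 CPM in wild-type and 4.69 CPM in zQ175 mice, differed by -0.28 ± 0.096 SE (log2, adjusted p = 0.0287 by edgeR) in zQ175 against wild-type. Lef1 was at -0.22 ± 0.097 SE (edgeR adjusted p = 0.0894) without Msh3. Adgra2 and Brf2 overlap on opposite strands over 73 bases, and Brf2 differed by 0.055. Lef1 shares 1620 bases with its antisense gene Gm43352, which differed by -0.39, so Lef1 is uncertain.

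Barrier, zonation and contractile genes followed. They were chosen for being called in zQ175 against wild-type mice, so their lower medians in zQ175 mice follow from that choice. Slc22a8, an organic anion transporter gene of the barrier, with medians of 7.79 CPM in wild-type and 6.12 CPM in zQ175 mice, differed by -0.38 ± 0.090 SE (log2, adjusted p = 0.00150 by edgeR) in zQ175 against wild-type. Its difference without Msh3 was -0.20 ± 0.090 SE (edgeR adjusted p = 0.0962). Plvap, a gene of fenestrated and leaky endothelium, with medians of 6.74 CPM in wild-type and 5.03 CPM in zQ175 mice, differed by -0.39 ± 0.11 SE (log2, adjusted p = 0.00874 by edgeR) in zQ175 against wild-type. The value in zQ175:Msh3-/- against Msh3-/- mice was -0.44 ± 0.11 SE (edgeR adjusted p = 0.00343). It shares 1819 of its 13988 bases with Gtpbp3 on the other strand. Slc38a5, a venous amino acid transporter gene, with medians of 2.41 CPM in wild-type and 1.52 CPM in zQ175 mice, differed by -0.54 ± 0.15 SE (log2, adjusted p = 0.00460 by edgeR) in zQ175 against wild-type. For Slc38a5 without Msh3 the value was -0.24 ± 0.15 SE (edgeR adjusted p = 0.249). Ackr1, a venous chemokine receptor gene, shares 493 of its 1865 bases with Cadm3 on the same strand, a gene at a mean of 229.6 TPM, so its counts may hold reads of Cadm3. Ackr1, with medians of 23.4 CPM in wild-type and 19.4 CPM in zQ175 mice, differed by -0.26 ± 0.061 SE (log2, adjusted p = 0.00115 by edgeR) in zQ175 against wild-type. Ackr1 was at -0.27 ± 0.061 SE (edgeR adjusted p = 0.00106) without Msh3. Cadm3 differed by 0.0065 in the first comparison. Tpm2, a tropomyosin gene of contractile cells, with medians of 12.4 CPM in wild-type and 7.37 CPM in zQ175 mice, differed by -0.74 ± 0.080 SE (log2, adjusted p = 4.27e-09 by edgeR) in zQ175 against wild-type. Its difference without Msh3 was -0.79 ± 0.082 SE (edgeR adjusted p = 1.58e-09). Tpm2 thus fell in both comparisons by about as much as Tagln. Lmod1, the leiomodin gene of smooth muscle, with medians of 1.85 CPM in wild-type and 1.24 CPM in zQ175 mice, differed by -0.55 ± 0.15 SE (log2, adjusted p = 0.00573 by edgeR) in zQ175 against wild-type. The value in zQ175:Msh3-/- against Msh3-/- mice was -0.060 ± 0.15 SE (edgeR adjusted p = 0.843).

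**Figure D5:**
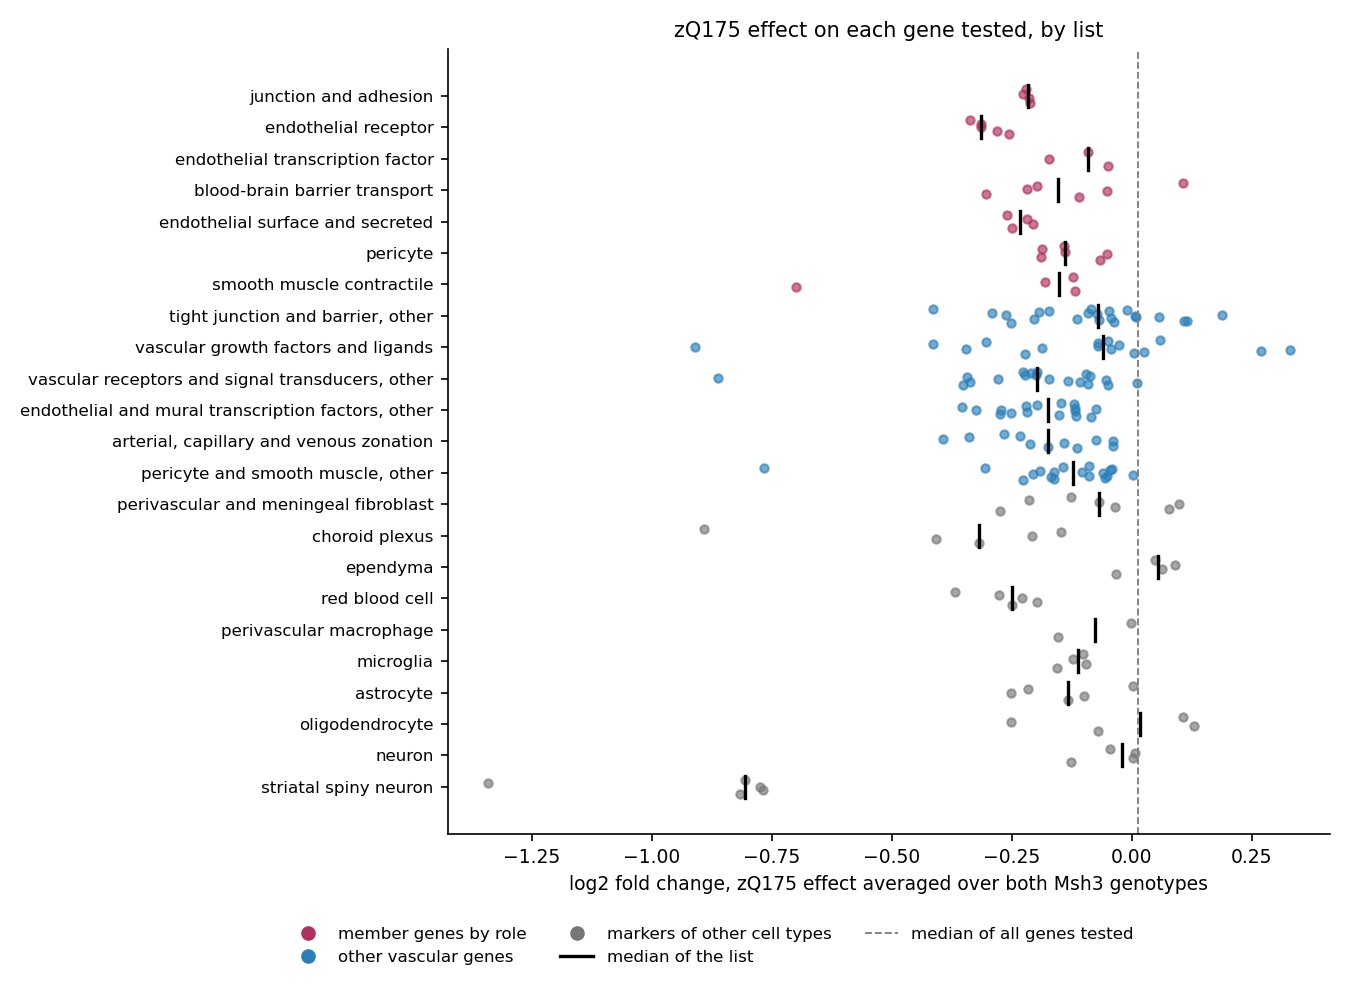
Log2 fold change of each gene tested for the zQ175 effect averaged over both Msh3 genotypes, by list: the 32 vascular genes by role (red), other vascular genes (blue) and markers of other cell types (grey), with the list's median as a black bar and the median of all genes tested dashed. Medians of the vascular lists lie between -0.31 and -0.059, and spiny neuron markers lie farthest left, at -0.80.

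Markers of other cells of the tissue are given beside the vascular genes, and their part in the results was not tested. All 5 markers of striatal spiny neurons fell in both zQ175 comparisons, and their summed level had a median of 5762 TPM in wild-type and 2939 in zQ175 mice, the most abundant being Ppp1r1b. TPM values are shares of each library, so a fall of abundant genes raises the shares of other genes. TMM factors are meant to correct for such shifts, and what remains of them in the results was not tested. Red blood cell markers, which stand for blood left in the vessels, summed to 621, 759 and 1133 TPM (lowest, median, highest) in wild-type mice, 408, 777 and 1065 in zQ175 mice, 621, 714 and 1105 in Msh3-/- mice and 568, 651 and 817 in zQ175:Msh3-/- mice, led by Hbb-bs. Of these 5 markers 0 passed by edgeR in either zQ175 comparison, with medians of -0.16 and -0.30, and 1 passed in the averaged effect. All 5 lay below 0 in each of these, with 0, 2 and 4 at an unadjusted p under 0.05 by edgeR. In zQ175:Msh3-/- against wild-type mice 0 passed by edgeR, but all 5 lay below 0, 4 at an unadjusted p under 0.05, with a median of -0.36. Perivascular and meningeal fibroblast markers, led by Igf2, summed to 22.8, 27.4 and 64.8 TPM in wild-type and 22.5, 25.5 and 72.7 in zQ175 mice, with 0 of 7 called by edgeR in either comparison and 1, lower, in the averaged effect. In each genotype the highest sums were those of the mice with choroid plexus RNA. Astrocyte markers, led by Aldoc, had 1 of 5 lower in zQ175 against wild-type and 0 by edgeR in the other comparison, with medians of -0.096 and -0.19. Their sums were 1624, 1674 and 1750 TPM in wild-type and 1434, 1522 and 1606 in zQ175 mice, ranges that did not overlap. In Msh3-/- mice they were 1579, 1686 and 1733, and in zQ175:Msh3-/- mice 1463, 1517 and 1612. Microglia (Csf1r the most abundant, 4 genes), ependyma (Rarres2, 4), oligodendrocytes (Mbp, 4), neurons as a whole (Snap25, 4) and perivascular macrophages (Cd163, 2 of 4 tested) had 0 genes called by edgeR in both comparisons. By edgeR's adjusted p alone, 3 of 4 microglia and 3 of 5 astrocyte markers were lower in zQ175:Msh3-/- against Msh3-/- mice, 1 of 4 microglia and 2 of 5 astrocyte markers in zQ175 against wild-type mice, and 1 of 4 neuron markers in each. Of all 16610 genes tested, 2049 were lower by this measure in zQ175:Msh3-/- against Msh3-/- and 2245 in zQ175 against wild-type. Medians are given for microglia, ependyma, oligodendrocytes, neurons and perivascular macrophages, in this order. They were -0.11, -0.094, 0.063, -0.031 and 0.041 in zQ175 against wild-type, and -0.15, 0.23, -0.026, -0.017 and -0.20 in zQ175:Msh3-/- against Msh3-/- mice. Of the macrophage markers Lyve1 and Pf4 were at 0 TPM in some mice, as was Kcnj13 of the choroid plexus, and no marker of these lists was at 0 in every mouse.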

How the data were processed

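Striatal RNA of 32 mice (8 per genotype, 6 months of age) was measured in polyA-selected, paired-end libraries. The deposited count table holds whole-number read counts per gene, made by the authors on genome build GRCm38.p6 with an aligner and counter that the sources used here do not state. The second deposited table holds TPM, scaled by the authors for gene length and depth: its file is named for another unit, but each column sums to 1000000. Samples were grouped by genotype and sex per the labels.

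Counts were normalised by TMM, filtered with filterByExpr by genotype and tested in 1 model of 4 genotypes with edgeR 4.0.16 (quasi-likelihood, robust) in R 4.3.3. A gene was called at a Benjamini-Hochberg adjusted p under 0.05 over 16610 genes and a fold change of at least 1.2. Differences of single genes between genotypes were also tested exactly over all arrangements of the mice, and pairs of genes with 100000 permutations. In a test on simulated data edgeR recovered 83% of changes of 1.5-fold in zQ175 against wild-type mice. Smaller changes, such as those of the called vascular genes other than Tagln, were not simulated. Alternatives were DESeq2 1.42.0, limma 3.58.1 on log2 TPM with pseudocounts of 0.1 and 1, RLE factors, other filters and thresholds, sex or replicate number in the model, each sex alone, only the groups compared, each mouse left out, and mice with choroid plexus RNA left out. Tables were made in Python 3.11.15 with pandas 2.3.3, numpy 2.4.6 and scipy 1.17.1, and figures with matplotlib 3.10.9. No 2 libraries of a genotype were copies of each other: the lowest chi-square per degree of freedom was 4.00 over 112 pairs.

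Full values are given for 12 of 13 eligible vascular genes (called in zQ175 against wild-type or in the averaged effect, by smallest adjusted p), for a reference gene of each role, and for up to 4 genes of each other vascular list called in zQ175 against wild-type with the same sign without Msh3. The genes and lists were chosen with earlier results of these data known.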

Additional observations from a re-analysis of the deposited data

Results flagged for a closer look

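The 8 mice of each genotype were searched for values far from the others, for the 32 vascular genes, Msh3 and marker sums. Chance flags about 1 in 20 groups, and 13 values were found in 172 groups. Among the vascular genes, in CPM, these were the highest Erg of zQ175 mice (6.118, female replicate 3), the highest Bsg of zQ175:Msh3-/- mice (425.9, male replicate 4), the highest Notch3 of zQ175:Msh3-/- mice (25.56, male replicate 2), the lowest Slc2a1 of zQ175:Msh3-/- mice (67.73, female replicate 1), the highest Vtn of wild-type mice (65.26, male replicate 2), the highest Tagln of wild-type mice (13.33, female replicate 2) and the highest Myh11 of Msh3-/- mice (8.49, male replicate 1).

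Among summed markers, in TPM, zQ175 male replicate 3 was highest for choroid plexus (3426) and perivascular and meningeal fibroblasts (72.68) in its genotype, and so was zQ175:Msh3-/- male replicate 4 (5753 and 108.1). The lowest perivascular macrophage sum of zQ175:Msh3-/- mice was 1.817 (female replicate 2), and the lowest oligodendrocyte sum of wild-type mice was 6568 (female replicate 1).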

How the results depend on the processing

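The counts of vascular genes called, all lower, were 12 in zQ175 against wild-type, 5 in zQ175:Msh3-/- against Msh3-/-, 6 in the zQ175 effect averaged over both Msh3 genotypes and 12 in zQ175:Msh3-/- against wild-type, and in this order DESeq2 gave 12, 5, 6 and 13. With a fold change of at least 1.5 they were 1, 1, 1 and 1. With limma on log2(TPM + 0.1) they were 6, 4, 2 and 6, with limma on log2(TPM + 1) 3, 2, 1 and 4, and with limma on log2(TPM + 0.1), no filter, 6, 3, 2 and 6. With males alone they were 7, 5, 11 and 8, and with females alone, fewer mice, 5, 1, 3 and 9. The averaged effect gave 18 by adjusted p alone, and zQ175 against wild-type gave 7 without the mice above 1000 TPM of choroid plexus markers. With 1 mouse left out in turn the counts ran from 6 (without zQ175 male replicate 3) to 14 (without wild-type male replicate 1) in zQ175 against wild-type, from 5 to 6 in zQ175:Msh3-/- against Msh3-/-, from 5 to 8 in the averaged effect and from 8 to 16 in zQ175:Msh3-/- against wild-type. The cause was not tested. The counts of 0 for Msh3 loss and the interaction stayed 0 under all of these. The shares of all genes called under these alternatives are not given here, so a changed count is not set against a background.

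The split of all genes called into higher and lower also moved. Of the calls in zQ175 against wild-type 40.6% were higher with edgeR and 59.9% with limma on log2(TPM + 0.1), where both the test and the scale differ.

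Signs reversed for genes near 0, and the cause was not tested. The values below are those of genes given in full. Other vascular genes also changed sign over 13 alternatives. Among them, in zQ175 against wild-type, Vtn lay below 0 in 8, Bsg in 9 and Sox18 and Anpep in 10. In zQ175:Msh3-/- against Msh3-/-, Myh11 lay below 0 in 8, Bsg in 9 and Vtn in 10. The log2 fold change of Erg, zQ175 against wild-type, was -0.0028 with RLE size factors, -0.00045 with no filter on low counts, -0.042 in females alone and, with 1 mouse left out, between -0.052 (without wild-type male replicate 1) and 0.039 (without wild-type female replicate 2). For females alone Erg was 0.062 in zQ175:Msh3-/- against Msh3-/-, 0.0099 in the averaged zQ175 effect and 0.0087 in zQ175:Msh3-/- against wild-type. Slc2a1, zQ175 against wild-type, was 0.024 with limma on log2(TPM + 0.1), with and without filter, 0.023 with limma on log2(TPM + 1) and 0.026 in males alone, where Acta2 was 0.019. With 1 mouse left out Slc2a1 ran from -0.095 (without zQ175 male replicate 1) to 0.022 (without wild-type male replicate 4), and Pdgfrb, zQ175:Msh3-/- against Msh3-/-, from -0.045 (without zQ175:Msh3-/- male replicate 2) to 0.028 (without Msh3-/- male replicate 2). Pdgfrb was 0.057 with limma on log2(TPM + 0.1), with and without filter, and 0.053 with limma on log2(TPM + 1) in zQ175:Msh3-/- against Msh3-/-, and 0.028 and 0.026 in zQ175:Msh3-/- against wild-type. Sizes moved too where the sign did not. Over 13 alternatives in zQ175:Msh3-/- against Msh3-/-, Slco1a4 ran from -0.17 to -0.044 and Emcn from -0.19 to -0.037.

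For pairs of genes across mice, without the 2 mice farthest from the median of the first gene r was 0.44 for Cldn5 and Flt1 (adjusted permutation p = 0.0615), 0.38 for Acta2 and Cldn5 (0.0972), -0.030 for Rgs5 and Vtn and 0.035 for Acta2 and Tagln. With log2(TPM + 0.1) it was -0.054 for Rgs5 and Vtn and 0.032 for Acta2 and Col1a1. The cause was not tested.

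The replicate numbers of the labels are not stated to pair mice. Mice of the same sex and number correlated between -0.147 and 0.333 over 45 pairs (median 0.0509), and 5 mice matched their own number best. With the replicate block 13, 5, 7 and 12 vascular genes were called in the 4 comparisons named first, and Pdgfrb was 0.015 in zQ175:Msh3-/- against Msh3-/-.

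The part of depth in the width of the intervals was not tested. In whole tissue, vessel cells cannot be separated from others, and the choroid plexus RNA of 7 mice was set apart by a rule made after seeing the data.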
